A study of Mus musculus with 18 samples.

Results

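The clustered protocadherins are cell adhesion genes that lie side by side in 3 subfamilies, alpha, beta and gamma, on mouse chromosome 18. All protein-coding genes of the GENCODE M21 annotation whose symbol begins with Pcdha, Pcdhb or Pcdhg were taken, which gave 57 of 21951 protein-coding genes. There were 14 alpha, 22 beta and 21 gamma genes, between positions 36930184 and 37841873 of build GRCm38 (mm10). The rule that picks them reads symbols alone, although it was proposed with earlier results of these data known. Pcdhgb8 was left out because the annotation types it as a polymorphic pseudogene.

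Clustered protocadherins are cadherin-like proteins best known from neurons, where each cell expresses its own combination and like proteins on neighbouring membranes recognise each other, so that branches of 1 cell avoid themselves. An alpha or gamma mRNA joins 1 long variable first exon to 3 constant exons shared by the whole subfamily, of which the last is long. The variable exon encodes the extracellular domain, the membrane-spanning segment and the start of the cytoplasmic tail, and the constant exons encode the rest of the tail and hold the stop codon and the 3′ UTR. Beta genes have no constant exons and are mostly a single exon. N6-methyladenosine (m6A) is deposited on mRNA by a complex with Mettl3 as its catalytic subunit, and is usually concentrated around stop codons and in long exons.

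The study enriched RNA fragments carrying m6A with an antibody and sequenced them beside unenriched input. Peak lists were used from 3 enriched libraries of BVSC embryonic stem cells (ESCs) grown without serum in LIF and the 2i kinase inhibitors CHIR99021 and PD0325901, from 3 of BVSC embryoid bodies (EBs) kept in suspension in serum for 8 to 21 days, and from 1 of Mettl3-KO ESCs, whose label names no line. A final list by the authors was also used for each of ESCs, EBs and embryonic fibroblasts (MEFs, E13.5). Strain C57BL/6 is given for all of them. The sources used here do not say how the Mettl3-KO cells were made or whether they are 1 clone. The design text calls the ESC, EB and MEF replicates biological.

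The lists hold positions, with no score or read count, so sequencing depth is unknown, and from a peak the level of a transcript and its methylation cannot be told apart. The 6 ESC and EB lists hold 10515 to 21509 peaks, with ESC replicate A and EB replicate C the shortest, and the knockout list 2043. Of 8 pluripotency markers, 5 to 6 had a peak in each ESC library, 5 to 7 in each EB library and 5 in the Mettl3-KO library. Of 12 neural markers, 3 to 5 and 3 to 4 had one. Sox1 had a peak in all 6 of these libraries, and Elavl3, Stmn2, Neurog2 and Ncam1 were among the 5 with none in any of them. Of 6 endoderm markers, 2, 3 and 4 had a peak in ESC replicates A, B and C and 5, 6 and 5 in EB replicates A, B and C. Apob had one in 3 EB libraries and no ESC library, while Sox17 and Gata4 had one in all 6. Of 6 mesoderm markers, 0, 1 and 0 had one in ESCs and 1, 3 and 1 in EBs. The final MEF list held 1 of 6 fibroblast markers (Thy1) and lacked Col1a1, Col1a2, Postn, Prrx1 and Twist2. The final ESC and EB lists held 1 fibroblast marker each as well. In ESC replicates A, B and C 1, 4 and 1 of the 6 had a peak, and in EB replicates A, B and C 4, 4 and 1. This marker set thus did not set the MEF list apart. The final MEF list held 1 of 8 pluripotency markers (Klf4). Over all protein-coding genes, 25.0% to 45.1% had a peak in an ESC or EB library. The share was 8.37% in the Mettl3-KO library and 24.7% in the final MEF list. Peaks are a weak check of a label, since they do not measure transcript levels.

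Most peaks on exons of the cluster lay on gamma variable exons, with 80 gamma and 10 alpha or beta own-exon peaks over the 6 ESC and EB libraries. An own exon is here any exonic base of a gene outside the constant exons and not shared with another gene of its subfamily. A gene had a peak when at least 1 bp of a peak lay on its own exons. Of the 57 genes, 22 had an own-exon peak in at least 1 ESC or EB library (13 gamma, 6 beta and 3 alpha) and 35 in none. Over all protein-coding genes and any exon, 60.1% had a peak in at least 1 of these libraries.

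In ESC replicates A, B and C, 6, 10 and 6 gamma genes had an own-exon peak, which is 28.6%, 47.6% and 28.6% of the 21. The background of all protein-coding genes with a peak was 25.0%, 44.1% and 39.2%. In EB replicates A, B and C, 9, 9 and 3 gamma genes had one (42.9%, 42.9% and 14.3%), against backgrounds of 40.3%, 45.1% and 31.5%. The gamma share was within 4 percentage points of the background in 4 of these libraries and below it in ESC replicate C and EB replicate C. Alpha genes had none in 5 of these 6 libraries and 3 in EB replicate B. Beta genes had 0, 0 and 2 in ESCs and 3, 2 and 0 in EBs, each a smaller share of their 22 than the background.

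**Figure D1:**
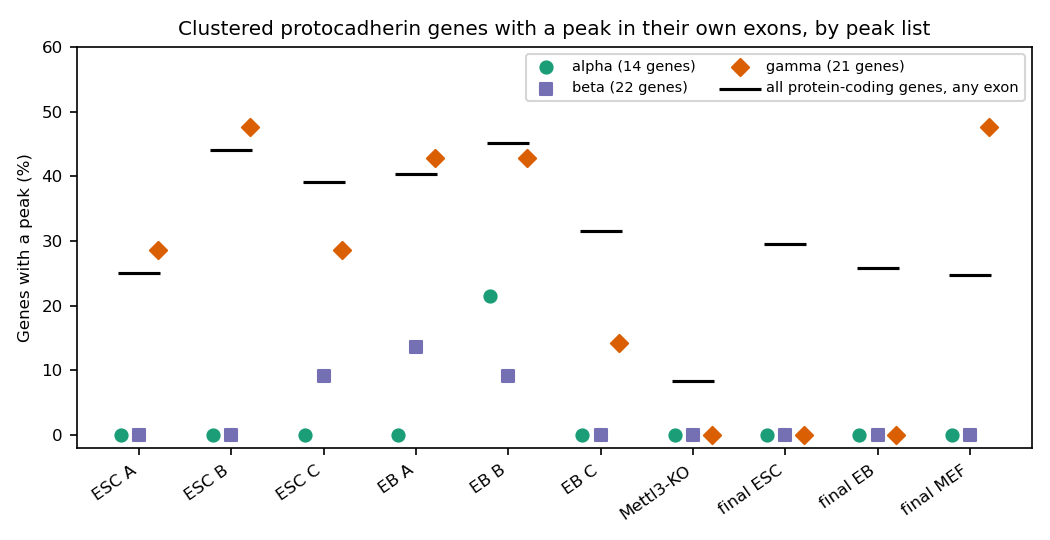
Percentage of the alpha, beta and gamma genes with a peak in their own exons (points) in each of the 7 library lists and 3 final lists, with the percentage of all protein-coding genes with a peak in any exon (black bars). Gamma genes lie near the bar in 4 of 6 ESC and EB libraries and at 47.6% in the final MEF list, while alpha and beta genes stay low.

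Among gamma genes, 3 had an own-exon peak in all 6 ESC and EB libraries, namely Pcdhga3, Pcdhga8 and Pcdhgc3. Over all protein-coding genes and any exon, 19.5% had a peak in all 6. A further 7 gamma genes had peaks in 2 to 4 libraries, 3 in ESC replicate A alone, and 8 in none. The 8 without a peak were Pcdhga1, Pcdhgb1, Pcdhga4, Pcdhgb2, Pcdhga5, Pcdhga6, Pcdhgb5 and Pcdhgb7. The gamma genes are of a, b and c types by the sequence of the variable exon, and number 12, 6 and 3. All 3 c-type genes had peaks in at least 3 libraries, as did 39.1% of protein-coding genes.

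Pcdhga3 had 251, 432 and 361 of its own-exon bases covered by peaks in ESC replicates A, B and C, and 335, 315 and 304 in EB replicates A, B and C. Of the 3 genes with a peak in every library its SD was the smallest in both groups, and ESC and EB values overlapped. The means were 348 ± 91.2 bases in ESCs and 318 ± 15.7 in EBs (SD, n = 3 each, exact permutation p = 0.7, 2-sided). The difference was below the SD of the ESC libraries and above that of the EB libraries. With 3 libraries against 3, no p below 0.1 can be reached.

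Pcdhga8 had 207, 663 and 290 covered bases in the ESC libraries and 371, 682 and 131 in the EB libraries. ESC replicate B and EB replicate B were high, and the groups overlapped. The means were 386.7 ± 243 and 394.7 ± 276 bases (SD, n = 3 each, exact permutation p = 0.9, 2-sided).

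Pcdhgc3, a c-type gene with reported roles in dendrite branching and Wnt signalling through Axin1, had 343, 251 and 815 covered bases in ESCs and 946, 1109 and 114 in EBs. EB replicates A and B were above every ESC library and EB replicate C below all of them. The means were 469.7 ± 303 and 723 ± 534 bases (SD, n = 3 each, exact permutation p = 0.6, 2-sided). This gene held the most covered bases of the cluster in 4 of the 6 libraries and in the final MEF list. Its peaks formed a site at the start of the exon in 5 libraries, one in the middle in 4 and one toward the 3′ end in 5. EB replicate C had the last of these alone.

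Pcdhgc4, which is needed for the survival of neurons, had no peak in ESC replicate A and EB replicate C, and 416, 320, 251 and 493 covered bases in ESC replicates B and C and EB replicates A and B. All 4 of these libraries had a peak on the same pair of sites, at 37815792 to 37816052 and at 37816925 to 37817270. Pcdhga12 had peaks in the same 4 libraries, with 510, 116, 190 and 133 covered bases. Pcdhga9, Pcdhgb6, Pcdhga10 and Pcdhgc5 each had peaks in ESC replicate B, EB replicate A and EB replicate B alone, the 3 longest lists. Covered bases of these 4 genes ran from 95 to 455 in those libraries. Pcdhga11 had peaks in ESC replicates B (351 bases) and C (138 bases) and in no EB library. Pcdhga2 (226 bases), Pcdhga7 (142) and Pcdhgb4 (159) had 1 peak each, in ESC replicate A, where the other libraries had none.

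**Figure D2:**
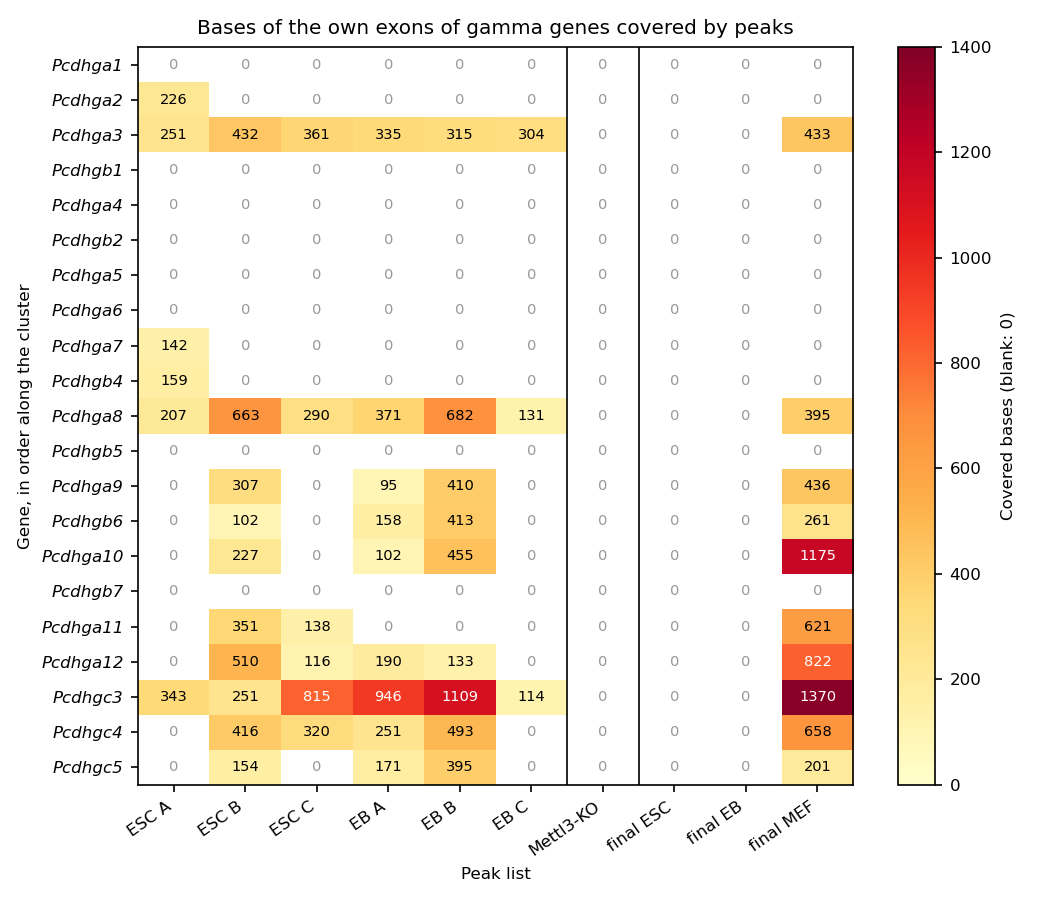
Bases of the own exons covered by peaks for each of the 21 gamma genes (rows, in order along the cluster) in each peak list (columns), with 0 printed on an uncoloured cell. Pcdhga3, Pcdhga8 and Pcdhgc3 are filled in all 6 ESC and EB libraries, and the knockout, final ESC and final EB columns are 0 throughout.

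Peaks of several gamma genes lay at a like place within the variable exon. Gamma variable exons are 2542 to 2961 bp long, and 28 of the 80 gamma peaks in the 6 libraries (35%) were centred 400 to 800 nt before the 3′ end of the exon, where it is spliced to the constant exons. Such a peak was present in each of the 6 libraries, with 5, 6 and 3 in ESC replicates A, B and C and 5, 7 and 2 in EB replicates A, B and C. Of the 10 a- and b-type genes with a library peak, 9 had one there, but only 5 of them in at least 2 libraries (Pcdhga3, Pcdhga8, Pcdhga9, Pcdhgb6 and Pcdhga12). Pcdhga11 was the exception, with its library peak nearest to this stretch centred 366 nt before the exon end. This stretch was picked after the positions were seen, so its share is a description.

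Only 2 stretches of the cluster were covered by peaks in all 6 libraries, and both lay in this place. In Pcdhga3 the stretch was 174 bp long (chromosome 18, 37676281 to 37676454), in coding sequence 626 to 453 nt before the exon end. Its peaks were 251, 330 and 229 bp wide in ESCs and 240, 315 and 304 bp in EBs. In Pcdhga8 it was 61 bp (37727798 to 37727858), 518 to 458 nt before the exon end, with ESC peaks of 207, 479 and 290 bp and EB peaks of 138, 388 and 131 bp over it. Both genes thus carried a peak at the matching position of their exons in each library, whichever its cell type. Within 400 to 800 nt before the exon end, 72.1% of the 32-base words of Pcdhga3 and 98.6% of those of Pcdhga8 occur once in the genome. Part of the Pcdhga3 signal may therefore be shared with other genes, which was not tested.

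In Pcdhgc3, the 3′ site lay nearer to the exon end, centred at 366 nt, and in Pcdhgc4 and Pcdhgc5 the nearest sites found in more than 1 library were centred at 886 and 193 nt. These are centres of merged sites. Single peaks of Pcdhgc3 (ESC replicate B, 434 nt) and Pcdhgc4 (EB replicate B, 782 nt) did fall within 400 to 800 nt and are among the 28 counted above. A smaller group of peaks lay at the other end of the exon. In the 6 libraries, 15 of 80 gamma peaks (18.8%) were centred within 300 nt of the exon start, among them those of Pcdhga8, Pcdhga11 and Pcdhgc3. By part of the transcript, 71 of the 80 were centred in coding sequence and 9 in the 5′ UTR.

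**Figure D3:**
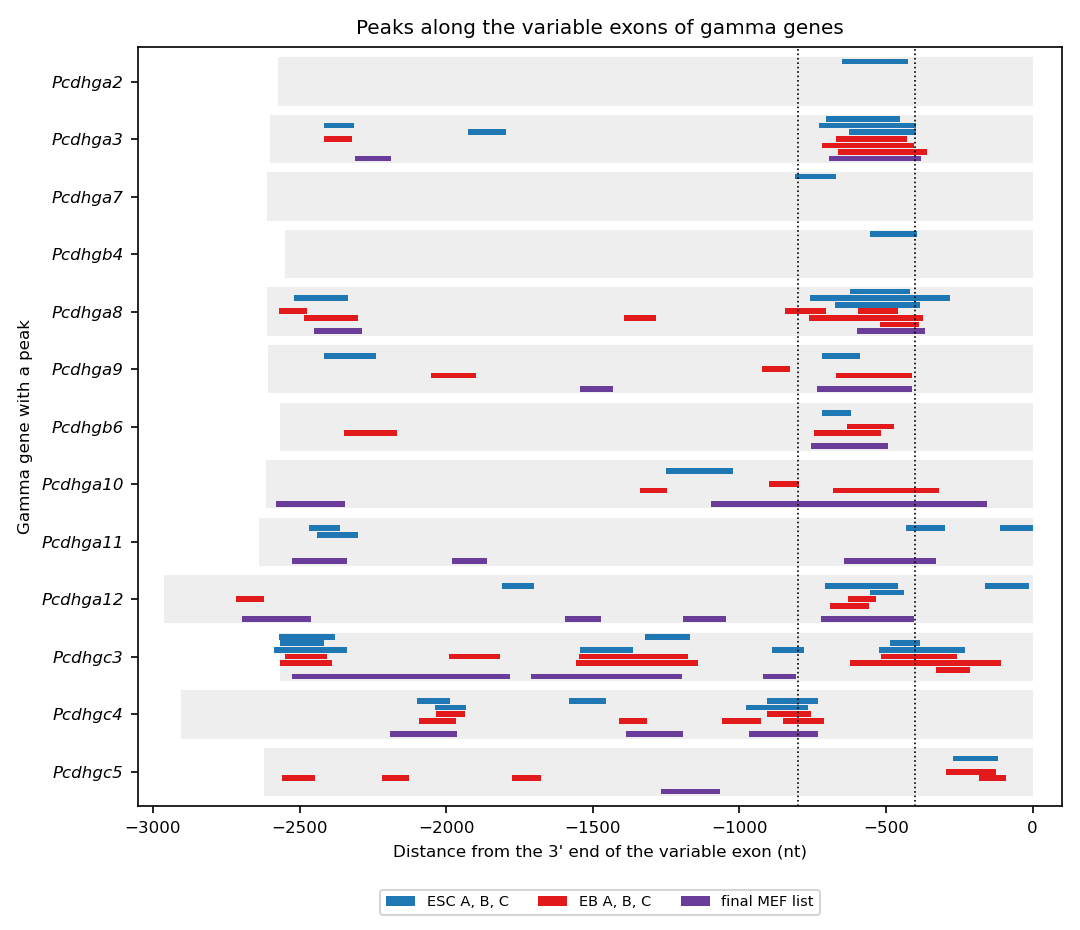
Peaks on the 13 gamma genes with a peak, placed by their distance from the 3′ end of the variable exon in nt (grey bars show the exon), with ESC libraries in blue, EB libraries in red and the final MEF list in purple. Dotted lines mark 400 and 800 nt before the exon end, where peaks of Pcdhga3 and Pcdhga8 stack in all 6 ESC and EB libraries.

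The constant exons carried no gamma peak at all. The 3 gamma constant exons (2119 bp together, 37825021 to 37841873) belong to the mRNA of every gamma gene, and 0 of their bases lay under a peak in any of the 7 library lists and 3 final lists. Of multi-exon protein-coding genes with a peak in a given library, 70.7%, 66.0% and 77.3% had a peak in a last exon in ESC replicates A, B and C and 70.4%, 66.9% and 68.7% in EB replicates A, B and C. Of those with a peak in all 6 libraries, 88.3% had one in a last exon in at least 1. The last gamma exon had none, although 3 gamma genes had a peak in all 6 libraries. With every value at 0, no test of EBs against ESCs could be made. GGAC, 4 letters typical of m6A sites, occurred in the gamma constant exons 10 times, or 4.72 per kb, against 5.79 per kb in gamma variable exons. Most 32-base words of the last gamma constant exon (95.2%) occur once in the genome.

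In the alpha constant exons (2860 bp together, 37156155 to 37187657), 1 peak of 95 bp was present in EB replicate A, and none in the other lists. The means of covered bases were 31.67 in EBs and 0 in ESCs (n = 3 each, exact permutation p = 1, 2-sided). With 1 library above 0, this p is fixed whatever the size of the peak, so it tests nothing. Without EB replicate A the value was 0 in both groups. GGAC was rarer there, with 5 occurrences or 1.75 per kb.

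Alpha and beta genes had few and narrow peaks. Over the 6 libraries they had 10 own-exon peaks, and 8 of these had exactly the smallest width in their list (93 bp in EB replicate B, 95 bp in EB replicate A and 108 bp in ESC replicate C). Of gamma peaks, 15 of 80 were at that smallest width, and of all peaks of these libraries 5.05% to 15.1%. The alpha peaks lay on Pcdha1, Pcdha4 and Pcdhac1, and all 3 came from EB replicate B. The narrow beta peaks lay on Pcdhb1, Pcdhb17, Pcdhb19, Pcdhb8 and Pcdhb21.

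Pcdhb13 was the one beta gene with a peak in more than 1 library, of 181 bp in EB replicate A and 184 bp in EB replicate B. They did not overlap, with centres 423 and 1216 nt after the start codon. No alpha or beta gene had a peak in the knockout or in a final list. In bulk cells, fewer cells expressing a gene and less RNA or methylation per cell cannot be told apart.

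The comparison of EBs with ESCs asked how peaks differ once pluripotent cells differentiate, and over all 6 libraries the cluster showed no difference beyond the spread between replicates. The number of the 57 genes with an own-exon peak was 6, 10 and 8 in ESC replicates A, B and C and 12, 14 and 3 in EB replicates A, B and C. The highest 2 and the lowest value were all EB libraries. Each count was a smaller share of the 57 than the background of 25.0% to 45.1% of protein-coding genes. The means were 8 ± 2 and 9.667 ± 5.86 (SD, n = 3 each), a difference of 1.67 that was 5 without EB replicate C, 2.67 without ESC replicate B, 0.667 without ESC replicate A, 0.5 without EB replicate A and -0.5 without EB replicate B. Without EB replicate C the EB counts lay above every ESC count, and with it the groups overlapped. Over all protein-coding genes the groups overlapped even without it, with 9681 genes in ESC replicate B and 8852 in EB replicate A. For gamma genes alone the means were 7.333 ± 2.31 and 7 ± 3.46. Own-exon bases covered were 1328, 3413 and 2256 in ESCs and 2990, 4961 and 549 in EBs. Peaks on own exons of the cluster made up 0.0666%, 0.101% and 0.0735% of all peaks in the ESC lists and 0.11%, 0.126% and 0.0243% in the EB lists.

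No cluster gene had a peak in 3 of 3 EB libraries and 0 of 3 ESC libraries (0 genes, background 0.483% of protein-coding genes), and none the reverse (0 genes, background 0.146%). With at least 2 of 3 libraries, Pcdhb13 was EB-only and Pcdhga11 ESC-only, against backgrounds of 2.42% and 1.69%. Pcdhb13 also met the strict rule without EB replicate C, and Pcdhga11 without ESC replicate A. Of 42 merged gamma sites, 14 had a peak in both ESC and EB libraries, 12 in ESC libraries and no EB library, and 9 in EB libraries and no ESC library. Of all sites merged in the same way on protein-coding exons, the shares were 47.2%, 22.1% and 28.5%. The remaining 7 gamma sites came from the MEF list.

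The Mettl3-knockout library asked which peaks depend on the methyltransferase. It had no peak on any exon of the 57 genes (background 8.37% of protein-coding genes), and no peak in the whole span of the cluster. Pcdhga3, Pcdhga8 and Pcdhgc3, each marked in every ESC library, thus lacked a knockout peak. Of all protein-coding genes with a peak in 3 of 3 ESC libraries, 79.6% had no knockout peak, so little can be read from 3 genes. The site at the start of Pcdhgc3 was found in all 3 ESC libraries (191, 149 and 251 bp) and had no knockout peak. There was 1 knockout library, with no replicate check and no test.

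The authors' final lists differed in how they held these genes. The final ESC and EB lists had 0 rows with a clustered protocadherin symbol and 0 peaks on their exons (backgrounds 29.6% and 25.8% of protein-coding genes). In ESCs, 8 merged regions on own exons of the cluster were present in at least 2 libraries and 3 of them in all 3, yet 0 of the 8 were in the final ESC list. Of all merged regions in at least 2 ESC libraries, 89.4% were in it. In EBs it was 0 of 11, against 59.3% of all such regions. The neighbouring gene Taf7, named here after its values were seen, had peaks in both final lists. The cause was not tested.

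The final MEF list held 23 peaks on the cluster, on 10 gamma genes and on no alpha or beta gene. That is 47.6% of gamma genes, against a background of 24.7%. Over the whole cluster it is 10 of 57 genes, a share below that background. The peaks were 111 to 940 bp wide with a median of 232 bp. All 23 carry the symbol Pcdhgc4 in the authors' deposited table, while 3 of them lie on the own exon of Pcdhgc4 and 20 on own exons of other gamma genes. Of the 23, 19 end before the annotated start of Pcdhgc4 at 37815079. By position, Pcdhgc3 had 1370 covered bases, Pcdhga10 had 1175, Pcdhga12 had 822, Pcdhgc4 had 658 and Pcdhga11 had 621. The other 5 had 201 to 436.

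The 10 genes with a MEF peak were also the 10 gamma genes with a peak in at least 2 ESC or EB libraries, so 10 of 10 in each list were shared. Of all protein-coding genes with a MEF peak, 96.9% had a peak in at least 2 of these libraries, and of those with a peak in at least 2, 51.2% had a MEF peak. The 3 genes with a peak in ESC replicate A alone had none in MEFs. Of the 23 MEF peaks, 16 were overlapped by a peak of an ESC or EB library, against 92.8% of all peaks in the MEF list. By library, 4, 12 and 9 were overlapped in ESC replicates A, B and C (all MEF peaks 53.9%, 77.1% and 68.1%) and 10, 12 and 2 in EB replicates A, B and C (all MEF peaks 78.0%, 82.9% and 63.3%). All 7 a- and b-type genes with a MEF peak had one centred 400 to 800 nt before the exon end, Pcdhga11 included. Pcdhgc5 was covered in MEFs at 37820867 to 37821067, where no ESC or EB library had a peak, and its 3′ site shared by 3 libraries was not in the MEF list. The 3′ site of Pcdhgc3, found in 5 of the 6 libraries, was not in it either. Replicates are not separated in this list, so MEF values have no error.

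**Figure D4:**
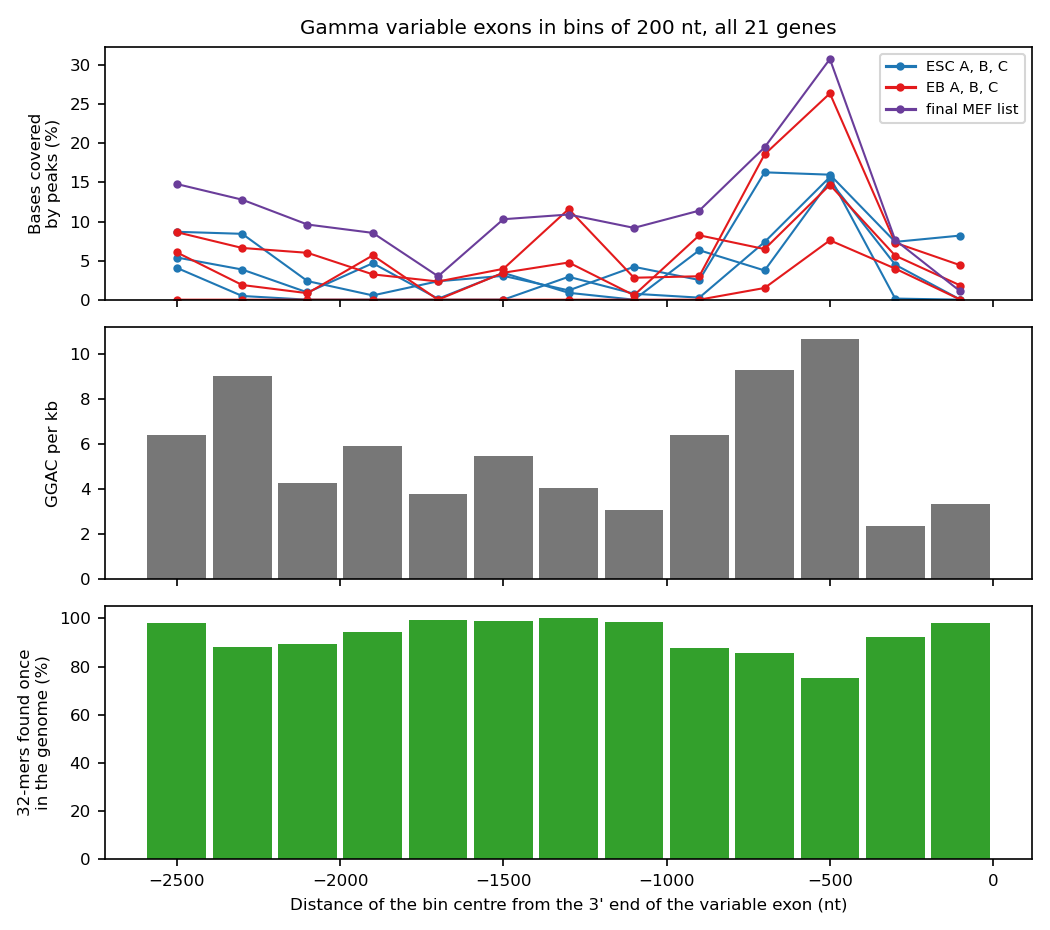
Gamma variable exons in bins of 200 nt from their 3′ end, over all 21 genes. From top to bottom, the panels give the percentage of bases covered by peaks in each ESC library (blue), each EB library (red) and the final MEF list (purple), the GGAC motifs per kb, and the percentage of 32-base words found once in the genome. Coverage was highest 400 to 600 nt before the exon end in all lists but ESC replicate B, which was at 16% there and 16.3% in the next bin, and GGAC was densest in the same bin at 10.7 per kb.

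GGAC lay near the centres of gamma peaks more often than in windows of gamma variable exons at large. GGAC was searched on the transcript strand within 50 nt of each peak centre, and was found for 59 of 80 gamma library peaks (73.8%) and 20 of 23 MEF peaks (87%). Over all windows of 101 nt in gamma variable exons, 45.1% held it. By library, it was 6 of 7, 12 of 20 and 9 of 11 in ESCs and 12 of 17, 17 of 22 and 3 of 3 in EBs. Of the 28 peaks centred 400 to 800 nt before the exon end, 27 had GGAC within 50 nt, and of the 52 others, 32. A site found in several libraries, as in Pcdhga3 and Pcdhga8, is counted once per peak, so these peaks are not independent. GGAC was also denser in this stretch, at 10.7 per kb from 400 to 600 nt and 9.29 from 600 to 800 nt, against 5.79 over the exons. The contrast of 27 of 28 with 32 of 52 is thus a description. These 400 bases held 3 to 5 copies in every a- and b-type gene, with a median of 4 both over all of them and over the 9 with no library peak there. Alpha variable exons held GGAC in 50% of windows and beta exons in 33%, and 8 of the 10 alpha and beta library peaks (80%) had it within 50 nt of the centre. A match to these letters is a description and not a methylated site.

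Stretches of some cluster genes are repeated in the genome, which limits how far a peak there can be given to 1 gene. In gamma variable exons, 76.9% to 100% of 32-base words occurred once in the genome, with a median of 96.8%. The share fell to 75.4% in the bin 400 to 600 nt before the exon end. Within 400 to 800 nt it was 72.1% for Pcdhga3, 98.6% for Pcdhga8, 100% for Pcdhga9, 56.1% for Pcdhgb4 and 33.1% for Pcdhgb6. Among genes without a peak it was 24.1% for Pcdhgb1, 20.6% for Pcdhgb2 and 47.7% for Pcdhgb5. Peaks there on Pcdhgb4 and Pcdhgb6 are therefore uncertain as to gene, and to a lesser degree those on Pcdhga3. The lack of a peak on Pcdhgb1, Pcdhgb2 and Pcdhgb5 is uncertain as well. The median over the exon was 79.0% for alpha and 90.8% for beta genes. The read length and the treatment of reads with several matches are not stated in these sources, and their part in the lack of alpha and beta peaks was not tested. Strand is not recorded either, and 23 of the 80 gamma library peaks and 9 of the 23 MEF peaks overlapped an exon of an antisense gene. These genes were chiefly BC037039 at Pcdhgc3, Gm37165 at the start of Pcdhga8 and Gm26672 at Pcdhga10, Pcdhga11 and Pcdhga12.

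Of 12 protocadherins outside the cluster, 1, 2 and 4 had a peak in ESC replicates A, B and C and 3, 4 and 3 in EB replicates A, B and C, beside backgrounds of 25.0% to 45.1%. In all, 5 had a peak in at least 1 library (background 60.1%) and 7 had none. Pcdh19 had one in all 6, and Pcdh7 in the 3 EB libraries and no ESC library, a pattern of 0.483% of protein-coding genes. Pcdh1 was the one with a knockout peak (background 8.37%). The final ESC list held 2 of the 12 and the final EB list 3 (backgrounds 29.6% and 25.8%). No such gene was in the final MEF list (background 24.7%). Of 15 genes known to regulate the cluster, 9, 14 and 10 had a peak in ESC replicates A, B and C and 11, 13 and 12 in EB replicates A, B and C, with the same backgrounds of 25.0% to 45.1%, and 7 had one in all 6 (background 19.5%). Among these were Ctcf, which binds the promoters of the variable exons, the cohesin subunit Rad21 with its loader Nipbl and release factor Wapl, the histone methyltransferase Setdb1 and the neuronal gene repressor Rest. In the knockout library 3 of the 15 regulators had a peak (background 8.37%), Setdb1 among them. Smchd1, which silences clustered protocadherins, had a peak in 4 of 6 libraries and Dnmt3b, which methylates their promoters, in 3 of 6. Among 12 partners in signalling and processing, 5 had a peak in all 6 libraries (background 19.5%), among them the kinase Ptk2b, Axin1, Wasf1 of the WAVE complex, and Ncstn of gamma-secretase, which cuts protocadherins.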

How the data were processed

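Peak positions of 7 enriched m6A-seq libraries and the 3 final lists were analysed. MACS 1.4.1, TopHat2 2.0.10, CASAVA 1.8.2 and build mm10 are listed, without roles, per the submitters' processing notes. Peaks in the deposited ESC and EB files carry names that start with MACS2, a later program. The deposited files give positions with peak names or gene symbols, except the knockout file, which gives positions alone. MEF starts were read as counted from 0. Single MEF libraries and inputs were not used here. Samples were grouped by their titles.

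Exons came from the basic set of GENCODE M21 and sequence from RefSeq GRCm38. Constant exons were bases annotated in at least 50% of a subfamily's genes. Calls used an overlap of 1 bp without strand. Words of 32 bases were counted on both strands of 22 sequences (chromosomes and the mitochondrial genome). EBs and ESCs were compared by 2-sided exact permutation tests over libraries. On simulated peaks the gene call recovered 200 of 200 seeded genes among 21938 and also called 9 unseeded genes that share exon bases with them. Software was bedtools 2.31.1, pysam 0.24.0 and matplotlib 3.10.9 with SciPy 1.17.1 and NumPy 2.4.6 under Python 3.11.15.

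The genes and lists were chosen with earlier results of these data known. Values per library were given for genes with a peak in most libraries, and for those called in 1 cell type or in the knockout. Further named were the lists of other protocadherins, regulators, partners and cell type markers, and genes overlapping a member. Some genes of these lists are not reported here. Alternatives were any exon, 50 bp of overlap, peak centres, peaks of at least 150 bp, all transcripts, at least 2 of 3 libraries, MEF starts counted from 1, and each replicate left out.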

Additional observations from a re-analysis of the deposited data

Results flagged for a closer look

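Peaks outside the genes of the cluster were seen in the long non-coding RNA 3222401L13Rik (chromosome 18, 37655451 to 37661742), which ends just before Pcdhga1. It drew attention as a signal outside the measured exons. This RNA had 10 peaks over the 6 ESC and EB libraries, with 0, 1 and 1 in ESC replicates A, B and C and 3, 4 and 1 in EB replicates A, B and C, and 0 in the knockout and in each final list. The knockout library was of ESCs, and ESC replicate A had no peak there either. A knockout peak was found for 8.37% of protein-coding genes, so little can be read from its absence here. The difference between ESCs and EBs was not tested.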

How the results depend on the processing

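The EB-only count of cluster genes was 0 and became 1 (Pcdhb13) with at least 2 of 3 libraries, and ranged from 0 to 1 with 1 replicate left out. The ESC-only count was 0 and became 1 (Pcdhga11) with at least 2 of 3 libraries, and ranged from 0 to 1 with 1 replicate left out. Cluster genes marked in every ESC library but not in the knockout numbered 3, which became 6 with at least 2 of 3 libraries and ranged from 3 to 6 with 1 replicate left out, the 6 without ESC replicate A. With peaks of at least 150 bp it was 2, without Pcdhgc3. The EB minus ESC difference in genes per library (1.67) was 6.33 with any exon, where 1 alpha constant peak counts for every alpha gene, and -0.667 with peaks of at least 150 bp. The difference in own-exon covered bases (501) ranged from -563 to 1643 with 1 replicate left out. Without EB replicate C the counts of cluster genes per library no longer overlapped between EBs and ESCs, while counts over all protein-coding genes still did. The count of 10 genes in the final MEF list, the counts of 0 in the final ESC and EB lists and the 0 covered bases of the gamma constant exons were the same under every alternative run on them. With the replicate letter as a block, the alpha constant exons gave exact sign-flip p = 1 for 31.7 bases. This p is fixed too, because 1 library alone was above 0. The gamma constant exons, at 0 bases in every library, gave no test. With 3 pairs, no p below 0.25 can be reached. Deviations of same-lettered libraries over 22 genes correlated at -0.154, 0.201 and -0.546, and the letters were not taken as pairs. Depth behind the peaks is unknown, so a missing peak is not a missing methylation.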
